A study of Saccharomyces cerevisiae with 8 samples.

Results

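The 10 genes described here encode the peroxiredoxins and the thioredoxin system of Saccharomyces cerevisiae. They are the peroxiredoxin genes AHP1, TSA1, TSA2, PRX1 and DOT5, the thioredoxin genes TRX1, TRX2 and TRX3, and the thioredoxin reductase genes TRR1 and TRR2. They were chosen by symbol from the 5449 S. cerevisiae genes on the array, not by a cut on their values. The choice was made with earlier results of these data known. Each is measured by 1 probe set, a group of short probes against 1 transcript. RNA came from 2 strains, NFRI 3145, which the labels call tolerant to acetic acid (AcOH), and NBRC 0224, which they call sensitive. The 4 groups are NFRI 3145 at 0.6% AcOH for 30 min, NFRI 3145 at 0% AcOH, NBRC 0224 at 0.6% AcOH for 30 min and NBRC 0224 at 0% AcOH, with 2 arrays each and all at 30 °C. No medium, growth phase, pH or strain genotype is given in the labels, and a time is given for the 0.6% AcOH samples only.

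Peroxiredoxins are enzymes that reduce hydrogen peroxide and organic peroxides with a reactive cysteine. The oxidised enzyme is recycled by thioredoxin, a small dithiol protein, and thioredoxin is in turn recycled by thioredoxin reductase at the expense of NADPH. In yeast the cytosol, the mitochondria and the nucleus hold different members, and the transcription factors Yap1 and Skn7 are known to raise several of these genes when cells meet peroxide.

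Values are deposited probe set signals in intensity units, compared within a probe set and never between probe sets. Background on each array was the 95th percentile of probe sets for another yeast, Schizosaccharomyces pombe, and lay between 31.5 and 43.9. Testing was limited to the 3879 genes that lay over this background on 2 or more of the 8 arrays. Of the 10 members, 9 were tested, and TRX3 was not. Differences are on the log2 scale with the standard error (SE) of a limma fit to all 8 arrays, and called means an adjusted p under 0.05 over all 3879 genes. The share of tested genes above background was 70.4% to 91.3% per array, and the r between replicates over the tested genes was 0.968 to 0.981. The labels do not say whether replicates were separate cultures, so p-values measure only the spread between these arrays. The precision of every value is limited by there being 2 arrays a group. Each array holds the RNA of a whole culture, so fewer cells with a transcript and less of it per cell cannot be told apart.

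Acetic acid went with higher signals of AHP1 and TRX2 in both strains, and of TRX1 in NFRI 3145. None of the members fell beyond the threshold in either strain. In NFRI 3145, 3 of 9 tested members were called, all higher, where 13.5% of all tested genes were called, 3.82% higher and 9.67% lower. For NBRC 0224 the members called were 2 of 9, both higher, where 8.4% of all tested genes were called, 3.61% higher and 4.8% lower. The median log2 response of the 9 members was 0.07 in NFRI 3145 and 0.19 in NBRC 0224, beside −0.07 and −0.11 over all tested genes. Separation of the arrays alone says little. The arrays of NFRI 3145 at the 2 acid levels did not overlap for 6 of 9 members (4 higher and 2 lower under acid), and for 59.2% of all tested genes (24.7% higher and 34.5% lower). Those of NBRC 0224 did not overlap for 5 of 9 members, all higher under acid, and for 55.5% of all tested genes (21.8% higher and 33.8% lower). The 4 higher in NFRI 3145 include TSA2, below background on all 4 arrays of that strain. The 2 lower include DOT5, below background on both acid arrays. In NFRI 3145 the number called was 1, namely AHP1, when replicate 1 at 0% AcOH, or replicate 1 or 2 at 0.6% AcOH, was left out. In NBRC 0224 it was 4 without replicate 1 at 0.6% AcOH, with TSA1 called higher and PRX1 lower besides AHP1 and TRX2, but the share called among all tested genes was then 19.3%. The response compares acid samples with samples for which no time is given, so acid and time or handling cannot be told apart.

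**Figure D1:**
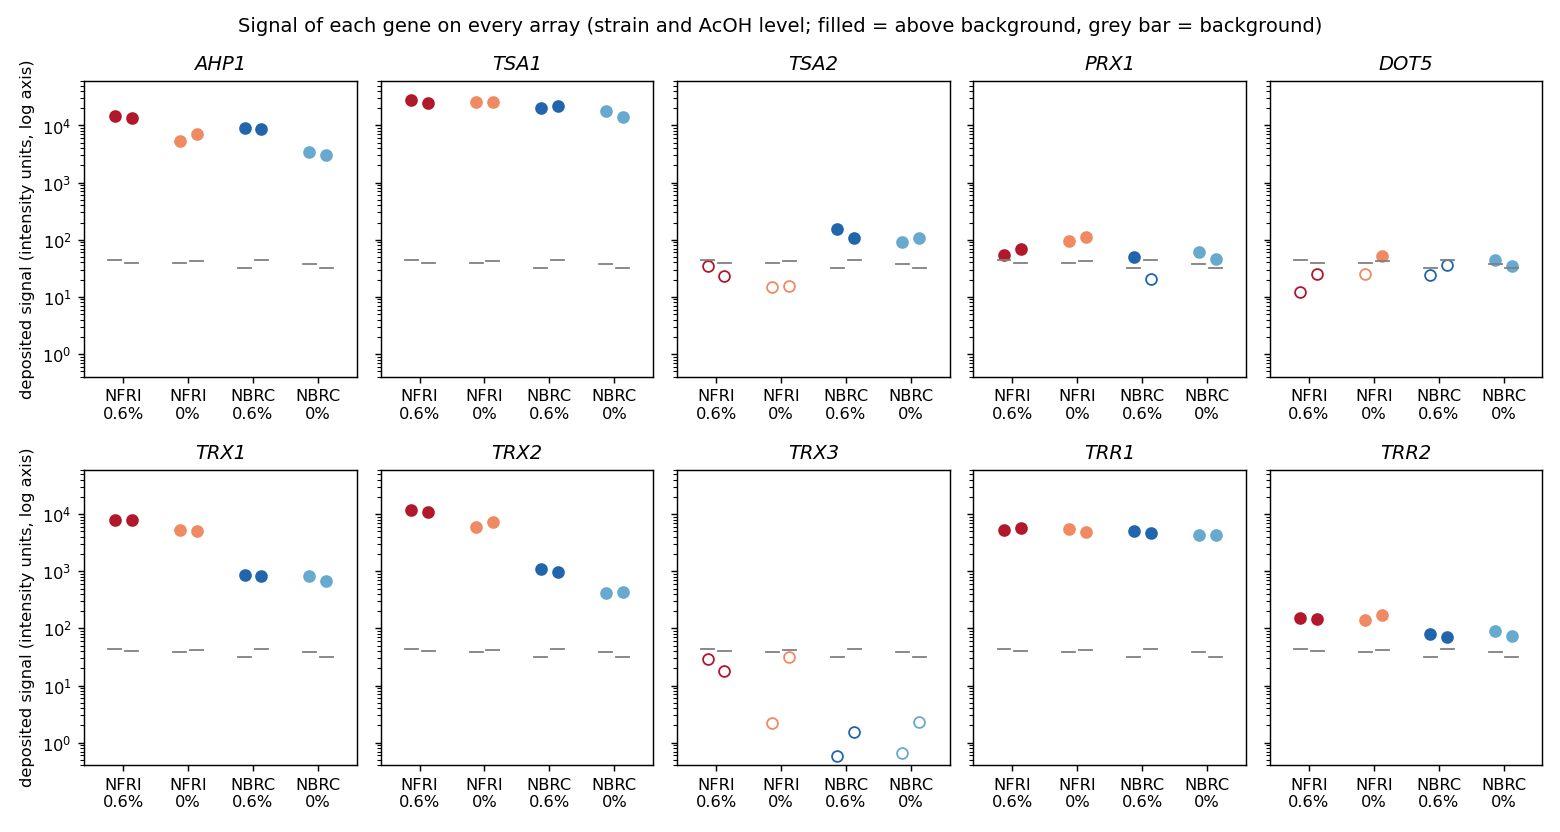
Signal of each of the 10 genes on every array, in intensity units on a log axis, by strain and acetic acid level. Each point is 1 array, filled above background and open below it, and the grey bars mark that array's background. AHP1 rises with acid in both strains, TRX1 and TRX2 sit far higher in NFRI 3145, TSA2 is below background on all 4 NFRI 3145 arrays, and TRX3 is below background everywhere.

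AHP1 encodes a thiol peroxidase that acts mainly on organic hydroperoxides. It read 14779.6 and 13711 in NFRI 3145 at 0.6% AcOH, against 5311 and 7163 at 0% AcOH. AHP1 in NBRC 0224 read 9081 and 8634 at 0.6% AcOH, against 3499.6 and 2992 at 0% AcOH. In each strain both acid arrays lay above both arrays without acid. The rise was 2.31-fold in NFRI 3145 (1.21 ± 0.16, adjusted p = 8e-04) and 2.74-fold in NBRC 0224 (1.45 ± 0.16, adjusted p = 3.6e-04). It was called under each of the 19 alternative settings in both strains, with values of 0.99 to 1.44 in NFRI 3145 and 1.34 to 1.61 in NBRC 0224. Not all of these settings can move its log2 change, since some alter only its SE or the set of genes tested. The responses of the strains differed by −0.25 (NFRI 3145 minus NBRC 0224, 95% interval −0.75 to 0.26), which was not called (adjusted p = 0.60). Averaged over both strains the rise of AHP1 was 1.33 ± 0.12 (adjusted p = 2.1e-05), the 39th largest of the 3879.

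TRX2 encodes one of the pair of cytosolic thioredoxins, the one whose gene Yap1 and Skn7 are known to activate. In NFRI 3145 it read 11770.1 and 10926 at 0.6% AcOH, against 6037 and 7229.8 at 0% AcOH. The NBRC 0224 arrays gave TRX2 at 1109 and 959.6 at 0.6% AcOH, against 422 and 432 at 0% AcOH. The acid arrays lay above the others in each strain, and all NFRI 3145 arrays lay above all NBRC 0224 arrays whatever the acid level. The rise was 1.72-fold in NFRI 3145 (0.78 ± 0.17, adjusted p = 0.014) and 2.41-fold in NBRC 0224 (1.27 ± 0.17, adjusted p = 0.0013). Without NFRI 3145 0% AcOH replicate 1 the rise of TRX2 in that strain was 0.65 with an adjusted p of 0.11. Without NFRI 3145 0.6% AcOH replicates 1 and 2 in turn its adjusted p was 0.13 and 0.076, while in NBRC 0224 the call held whichever array was left out. Like that of AHP1, the NFRI 3145 acid mean of TRX2 exceeded 10000 intensity units, a mark chosen here and not a measured limit. The highest signals on those arrays were 30719 and 27922. Whether changes at such signals are compressed was not tested. The difference of the responses was −0.49 (95% interval −1.03 to 0.05, adjusted p = 0.32).

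TRX1 encodes the other cytosolic thioredoxin. It read 7999.8 and 7874 in NFRI 3145 at 0.6% AcOH, against 5244 and 5034 at 0% AcOH. TRX1 in NBRC 0224 read 861 and 829 at 0.6% AcOH, against 816 and 676 at 0% AcOH. The arrays of the 2 acid levels did not overlap in either strain, but in NBRC 0224 they were separated only narrowly. TRX1 rose 1.54-fold in NFRI 3145 (0.63 ± 0.17, adjusted p = 0.033) and was 0.19 ± 0.17 in NBRC 0224, which was not called (adjusted p = 0.54). The call in NFRI 3145 is weak. It was lost without NFRI 3145 0% AcOH replicates 1 and 2 (adjusted p = 0.11 and 0.18) and without NFRI 3145 0.6% AcOH replicates 1 and 2 (adjusted p = 0.19 and 0.16), and also after quantile normalization (0.54, adjusted p = 0.063). The difference of the responses of TRX1 was 0.44 (95% interval −0.09 to 0.97, adjusted p = 0.37), so the strains are not shown to differ in it.

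TSA1 encodes the most abundant cytosolic peroxiredoxin, which also acts as a chaperone. It read 27589.8 and 25039 in NFRI 3145 at 0.6% AcOH, against 25975 and 25265 at 0% AcOH, and these arrays overlapped. TSA1 in NBRC 0224 read 19908 and 22294 at 0.6% AcOH, against 18198 and 14353 at 0% AcOH, where both acid arrays were higher. Its response was 0.04 ± 0.13 in NFRI 3145 (95% interval −0.24 to 0.32) and 0.38 ± 0.13 in NBRC 0224 (95% interval 0.10 to 0.66, adjusted p = 0.098), neither of them called. Without NBRC 0224 0.6% AcOH replicate 1 the response of TSA1 in NBRC 0224 was 0.46 with an adjusted p of 0.035. The signal of TSA1 exceeded 10000 intensity units on all 8 arrays, where changes may be compressed, which was not tested.

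Neither thioredoxin reductase gene was called under acid. TRR1, which encodes the cytosolic thioredoxin reductase, read 5261 and 5616 in NFRI 3145 at 0.6% AcOH, against 5445 and 4956 at 0% AcOH. In NBRC 0224 it read 5007 and 4769 at 0.6% AcOH, against 4299 and 4288 at 0% AcOH. Its arrays overlapped in NFRI 3145, while in NBRC 0224 the acid arrays were slightly higher. The response of TRR1 was 0.07 ± 0.14 in NFRI 3145 and 0.19 ± 0.14 in NBRC 0224 (adjusted p = 0.82 and 0.44), with 95% intervals of −0.24 to 0.37 and −0.12 to 0.50, which leave out a doubling. TRR2, which encodes the mitochondrial reductase, read 152 and 149 in NFRI 3145 at 0.6% AcOH, against 138 and 174 at 0% AcOH. In NBRC 0224 TRR2 read 79.1 and 69.8 at 0.6% AcOH, against 92.0 and 72.6 at 0% AcOH. The acid levels overlapped in each strain, and its responses were −0.04 ± 0.27 in NFRI 3145 and −0.14 ± 0.27 in NBRC 0224 (adjusted p = 0.95 and 0.80).

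The remaining peroxiredoxin genes lay near background. PRX1, which encodes the mitochondrial peroxiredoxin, read 53.4 and 70.0 in NFRI 3145 at 0.6% AcOH, against 94.1 and 109 at 0% AcOH. In NBRC 0224 PRX1 read 50.3 and 20.3 at 0.6% AcOH, the second of them below background, against 62.0 and 45.2 at 0% AcOH. The acid arrays were lower in NFRI 3145 and overlapped with the others in NBRC 0224. The fitted change was −0.73 ± 0.45 in each strain, not called (adjusted p = 0.33 in NFRI 3145 and 0.35 in NBRC 0224). In NBRC 0224 PRX1 was at −1.39 with an adjusted p of 0.047 without 0.6% AcOH replicate 1, which leaves the array below background to stand for the group. DOT5, which encodes the nuclear thiol peroxidase, read 12.4 and 24.8 in NFRI 3145 at 0.6% AcOH, against 25.2 and 52.5 at 0% AcOH. In NBRC 0224 it read 24.3 and 35.9 at 0.6% AcOH, against 43.7 and 34.6 at 0% AcOH. DOT5 was above background on 3 of 8 arrays, none of them an acid array, and it was not called in any comparison.

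TRX3, which encodes the mitochondrial thioredoxin, was below background on all 8 arrays. It read 29.1 and 18.3 in NFRI 3145 at 0.6% AcOH and 2.24 and 31.1 at 0% AcOH. In NBRC 0224 it read 0.592 and 1.57 at 0.6% AcOH and 0.654 and 2.26 at 0% AcOH. No fold is given for it, since all groups lie below background.

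The test of the difference of the acid responses called 0 of 9 members, where 0.851% of all tested genes were called (0.206% higher and 0.644% lower). The limma fit gave 0 members at an unadjusted p under 0.05 as well, where 671 of the 3879 tested genes reached it, and 0 members were called under each of the 18 alternative settings. The widest interval among the members above background on all arrays was that of TRR2 (−0.75 to 0.95), so differences of less than about that size could have been missed. Averaging the response over both strains called 3 of 9 members, AHP1, TRX2 (1.03 ± 0.12, adjusted p = 2.1e-04) and TRX1 (0.41 ± 0.12, adjusted p = 0.039), where 17.4% of all tested genes were called (5.7% higher and 11.7% lower). TRX1 was called on average in 3 of the 8 fits that left out 1 array.

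**Figure D2:**
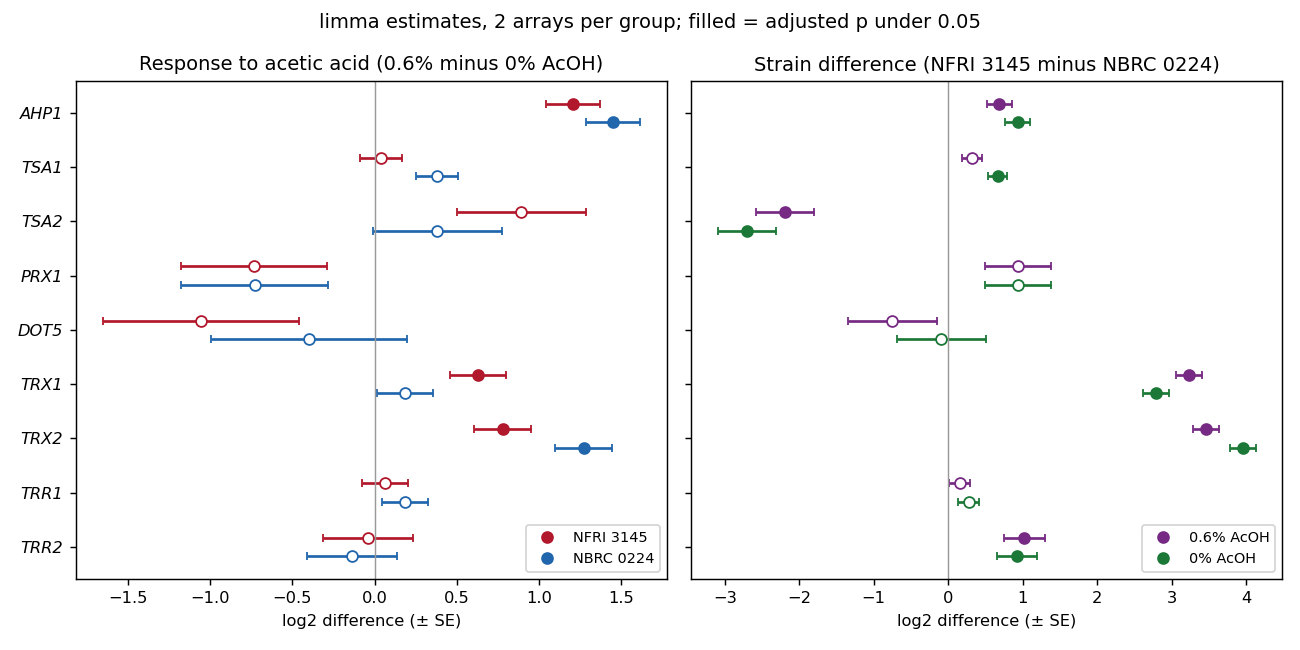
Log2 differences of the 9 tested genes with the standard error of the limma fit, 2 arrays per group. The left panel shows the response to acetic acid in NFRI 3145 and NBRC 0224, and the right panel shows NFRI 3145 minus NBRC 0224 at 0.6% and at 0% AcOH. Filled points passed an adjusted p under 0.05, and the points of TSA2 that involve NFRI 3145 and of DOT5 that involve 0.6% AcOH are fitted to signals below background. AHP1 and TRX2 are filled for both strains on the left, and TRX1 and TRX2 lie between 2.79 and 3.95 on the right.

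Between the strains, the cytosolic thioredoxin genes TRX1 and TRX2 were many times higher in NFRI 3145 at both acid levels, and TSA2 was lower. For AHP1 the strain difference was smaller than the acid response. AHP1 and TRR2 were about 2-fold higher or somewhat less, and TRR1 was close in both. At 0.6% AcOH, 4 of 9 tested members were called higher and 1 lower in NFRI 3145, where 17.4% of all tested genes were called higher and 28.7% lower. At 0% AcOH, 5 of 9 were called higher and 1 lower, where 21.1% were called higher and 29.1% lower among all tested genes. The 1 called lower was TSA2 each time, which was below background in NFRI 3145 and entered the test only through NBRC 0224. Among genes above background on all 8 arrays, 5 members were called higher and 0 lower at each acid level. Of all genes so filtered, 56.4% were called at 0.6% AcOH and 61.1% at 0% AcOH. The strains differed in 46.1% of tested genes at 0.6% AcOH and in 50.2% at 0% AcOH, so the mere number of members called is near the background and is not a result about them. At each acid level the strains' arrays did not overlap for 8 of 9 members, all but DOT5, with 7 higher in NFRI 3145 and 1, again TSA2, lower. Among all tested genes that held for 70.4% at 0.6% AcOH (26.8% higher and 43.6% lower) and for 81.5% at 0% AcOH (38.5% higher and 43% lower). The median log2 strain difference of the members was 0.69 at 0.6% AcOH and 0.92 at 0% AcOH, beside −0.23 and −0.06 over all tested genes. The array's probes were not compared here with the genomes of these strains, and the part that sequence differences in the probed region have in a strain difference was not tested.

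TRX2 was 11.0-fold higher in NFRI 3145 at 0.6% AcOH (3.46 ± 0.17, adjusted p = 1.4e-07) and 15.5-fold higher at 0% AcOH (3.95 ± 0.17, adjusted p = 3.3e-08). Its group means were 11348 and 1034 at 0.6% AcOH in NFRI 3145 and NBRC 0224, and 6634 and 427 at 0% AcOH. Counted from the largest positive difference, TRX2 stood 22nd at 0.6% AcOH and 17th at 0% AcOH among the 3879 genes. TRX1 was 9.39-fold higher at 0.6% AcOH (3.23 ± 0.17, adjusted p = 1.4e-07), 33rd in the same order, and 6.91-fold higher at 0% AcOH (2.79 ± 0.17, adjusted p = 2.8e-07), 81st in that order. The lowest NFRI 3145 array of each gene was several times above its highest NBRC 0224 array. Under the 19 alternative settings of each comparison the difference stayed called, between 3.35 and 3.95 for TRX2 and 3.18 and 3.72 for TRX1 at 0.6% AcOH, and between 3.82 and 4.36 and between 2.65 and 3.20 at 0% AcOH.

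TSA2, which encodes a paralog of Tsa1 in the cytosol, ran the other way. It read 34.8 and 23.4 in NFRI 3145 against 157 and 108 in NBRC 0224 at 0.6% AcOH. At 0% AcOH it read 15.1 and 15.7 in NFRI 3145 against 91.4 and 109 in NBRC 0224. All 4 NFRI 3145 arrays were below background and all 4 NBRC 0224 arrays above it. Against background, TSA2 was at least 3.12-fold lower in NFRI 3145 at 0.6% AcOH and at least 2.46-fold lower at 0% AcOH. The adjusted p of the fitted differences was 8.5e-04 and 1.6e-04, and those fits rest on NFRI 3145 signals below background. The bounds themselves were not tested. These bounds cannot be ordered, and TSA2 entered the test only through the strain in which it is high. Its response to acid was 0.38 ± 0.39 in NBRC 0224 (adjusted p = 0.59), with overlapping arrays, and in NFRI 3145 both groups were below background, so no fold is given there.

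AHP1 was 1.61-fold higher in NFRI 3145 at 0.6% AcOH (0.68 ± 0.16, adjusted p = 0.0053) and 1.91-fold higher at 0% AcOH (0.93 ± 0.16, adjusted p = 6.3e-04). At each acid level both NFRI 3145 arrays lay above both NBRC 0224 arrays, and NBRC 0224 under acid read higher than NFRI 3145 without it. Without NFRI 3145 0.6% AcOH replicate 1 the AHP1 difference under acid was 0.63 and missed the threshold narrowly (adjusted p = 0.054). TRR2 was 2.03-fold higher in NFRI 3145 at 0.6% AcOH (1.02 ± 0.27, adjusted p = 0.0099) and 1.90-fold higher at 0% AcOH (0.92 ± 0.27, adjusted p = 0.015). At 0% AcOH the call of TRR2 was lost without NFRI 3145 replicate 2 (adjusted p = 0.10) or without NBRC 0224 replicate 2 (adjusted p = 0.11). TSA1 was 1.59-fold higher in NFRI 3145 at 0% AcOH (0.66 ± 0.13, adjusted p = 0.0012) and 0.32 ± 0.13 at 0.6% AcOH, which was not called (adjusted p = 0.061, or 0.030 without NBRC 0224 0.6% AcOH replicate 2).

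The strain differences of TRR1, PRX1 and DOT5 were not called. That of TRR1 was 0.15 ± 0.14 at 0.6% AcOH and 0.27 ± 0.14 at 0% AcOH (adjusted p = 0.40 and 0.12), although each NFRI 3145 array read higher than each NBRC 0224 array at the same acid level. At 0% AcOH its adjusted p was 0.045 without either NBRC 0224 0.6% AcOH array, at the same difference. PRX1 was 0.94 ± 0.45 at both acid levels (adjusted p = 0.11 at 0.6% and 0.10 at 0% AcOH). At 0.6% AcOH that fit includes 1 NBRC 0224 array below background, and against background PRX1 was at least 1.30-fold higher in NFRI 3145. Without NBRC 0224 0.6% AcOH replicate 1, which left the replicate below background, PRX1 was at 1.59 under acid with an adjusted p of 0.013. At 0% AcOH, with an unchanged difference, its adjusted p was 0.040 without that array and 0.033 without NBRC 0224 0.6% AcOH replicate 2. DOT5 was below background in both strains at 0.6% AcOH, so no difference is given there, and it was at −0.10 ± 0.60 at 0% AcOH (adjusted p = 0.91).

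The scaling of the arrays bears on the strain differences. Median centring in place of the deposited scaling moved the median strain difference of all tested genes from −0.23 to 0.26 at 0.6% AcOH and from −0.06 to 0.35 at 0% AcOH, and every member moved up with it. TRR1, PRX1 and TSA1 then also passed at 0.6% AcOH, with 8 of 9 members called where 47.7% of all tested genes were called, while AHP1 stood at 1.18 there and TSA1 at 1.08 at 0% AcOH. Relative to the median of all genes, the deposited scaling put AHP1 and TSA1 above it at both acid levels too. No called member changed direction under any setting.

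**Figure D3:**
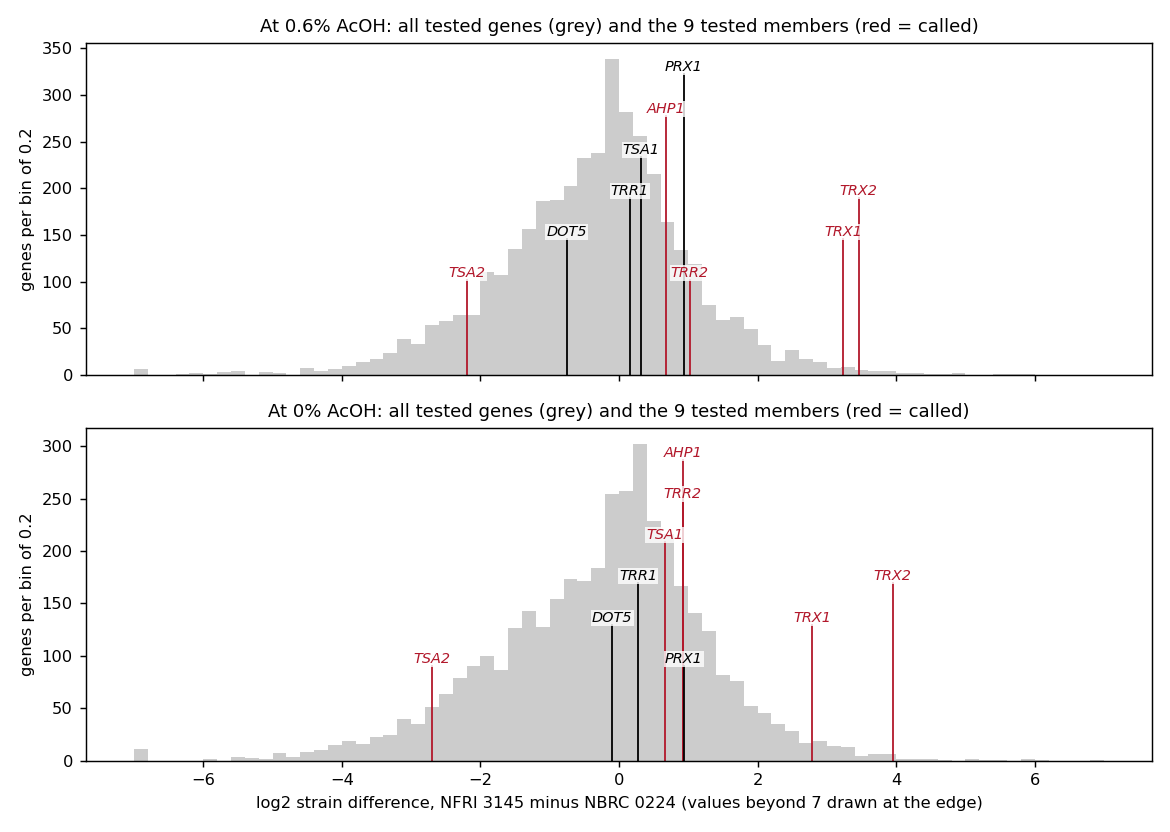
Number of tested genes by log2 strain difference, NFRI 3145 minus NBRC 0224, at 0.6% AcOH (top) and 0% AcOH (bottom), in bins of 0.2, with the 9 tested members as lines (red where called). TRX1 and TRX2 stand in the thin upper tail in both panels, and TSA2 on the lower side at −2.19 and −2.70, fitted values that rest on signals below background in NFRI 3145.

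Likeness of profile over the 8 arrays was taken as the root mean square difference of log2 signal after each gene's own mean was removed. Of the 36 pairs of tested members, TSA1 and TRR1 were closest (0.20), and TRX1 and TRX2 differed by 0.53. This measure is not scaled to the size of change, so genes that vary little, as TSA1 and TRR1 do, lie close whatever their pattern. Distances to TSA2 rest on signals below background in NFRI 3145 and are not given. Among all tested genes, the closest to AHP1 were AHA1 (0.24), which encodes an activator of the Hsp90 chaperone, BOL3 (0.24) and GRE2 (0.25), which encodes a methylglyoxal reductase. The closest to TRX1 were the ribosomal protein gene RPL36B (0.16), the ATP synthase subunit gene ATP15 (0.18) and SIP2 (0.21), which encodes a subunit of the Snf1 kinase complex. The closest to TRX2 were the ribosomal protein genes RPL37A and RPS28A (0.33 each) and MRX14 (0.34). A strain difference like that of TRX1 or TRX2 in these genes follows from how they were picked. RPL37A, RPS28A and MRX14 responded to acid by 0.14, 0.14 and 0.82 in NFRI 3145, beside 0.78 for TRX2. In NBRC 0224 they responded by 0.65, 1.14 and 0.37, beside 1.27 for TRX2. Likeness over the 8 arrays thus need not extend to the acid response.

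Genes that surround the peroxiredoxin cycle were read in 4 lists, chosen with earlier results of these data known. Averaged over both strains, 5.7% of all tested genes were called higher and 11.7% lower. Among other targets and regulators of Yap1 and Skn7, 4 of 11 tested genes were higher and 1 lower (median 0.34, beside −0.09 over all tested genes). In the glutathione and glutaredoxin list 3 of 9 were higher and 1 lower (median 0.24). In the list of NADPH supply 4 of 13 were higher and 2 lower (median 0.01), and among peroxide partners and clients of thioredoxin 1 of 10 was higher and 0 lower (median 0.07).

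Of the Yap1 and Skn7 list, both superoxide dismutase genes rose with acid. SOD1, the cytosolic enzyme, read 19376 and 17902 in NFRI 3145 at 0.6% AcOH against 12335 and 12079 at 0% AcOH, and 7018 and 6664 in NBRC 0224 at 0.6% AcOH against 4627 and 3044 at 0% AcOH. Its average response was 0.74 ± 0.12 (adjusted p = 0.0022), that of SOD2, the mitochondrial enzyme, 0.92 ± 0.14 (adjusted p = 0.0011) and that of GRE2 1.14 ± 0.15 (adjusted p = 4.5e-04). The acid arrays of SOD1 lay above the others in each strain, as those of AHP1 and TRX2 did. The averages of SOD1, SOD2 and GRE2 were called under each of the 18 alternative settings. The regulators themselves were not called in the average response to acid: SKN7 was at 0.48 ± 0.19 (adjusted p = 0.11) and YAP1, which was near background, at −0.38 ± 0.30 (adjusted p = 0.43). Between the strains, SOD1 was higher in NFRI 3145 (1.45 ± 0.18 at 0.6% and 1.70 ± 0.18 at 0% AcOH, adjusted p = 5.5e-05 and 1.3e-05). YCF1, which encodes a vacuolar transporter of glutathione conjugates, was lower there (−2.48 ± 0.28 and −2.44 ± 0.28, adjusted p = 3.2e-05 and 2.9e-05). SKN7 was also called lower in NFRI 3145 at both acid levels. Its means were 262 against 495 in NBRC 0224 at 0.6% AcOH, and 184 against 366 at 0% AcOH. Over the alternative settings its difference was −1.13 to −0.41 at 0.6% and −1.32 to −0.56 at 0% AcOH, and not all of them kept the call. OYE3, GTT2 and LOT6 of that list were not tested for low signal.

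Of NADPH supply, ZWF1, the glucose-6-phosphate dehydrogenase that opens the pentose phosphate pathway, rose by 0.64 ± 0.10 on average (adjusted p = 9.7e-04). Its response was nearly equal in the strains, at 0.64 ± 0.13 in NFRI 3145 and 0.63 ± 0.13 in NBRC 0224. ALD6, the cytosolic acetaldehyde dehydrogenase that makes acetate and NADPH, rose by 0.69 ± 0.12 on average (adjusted p = 0.0027) and was lower in NFRI 3145 at both acid levels, 4.03-fold at 0.6% AcOH (−2.01 ± 0.17, adjusted p = 4e-06) and 7.08-fold at 0% AcOH (−2.82 ± 0.17, adjusted p = 2.8e-07). SOL4, a phosphogluconolactonase gene, was at least 3.31-fold lower at 0.6% than at 0% AcOH in NFRI 3145, where both acid arrays were below background. Its fitted change, not this bound, had an adjusted p of 0.0090. Without NFRI 3145 0% AcOH replicate 1 or NFRI 3145 0.6% AcOH replicate 1 the adjusted p of SOL4 was 0.068 and 0.058.

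Of the glutaredoxin genes, GRX5, which encodes a mitochondrial glutaredoxin of iron-sulfur cluster assembly, rose by 0.69 ± 0.12 on average (adjusted p = 0.0030), and GRX4, which encodes a glutaredoxin of iron sensing, fell by 1.04 on average (SE 0.17, adjusted p = 0.0020). Both of these averages were called in all 18 settings. GSH1, the first enzyme of glutathione synthesis, was not called under acid (average 0.03 ± 0.19, adjusted p = 0.94) but was far lower in NFRI 3145 (−3.02 ± 0.27 at 0.6% AcOH, adjusted p = 5.4e-06, and at least 9.76-fold lower at 0% AcOH with 1 array below background). GRX2, a glutaredoxin gene, was higher in NFRI 3145 at both acid levels (2.43 ± 0.28 at 0.6% and 1.51 ± 0.28 at 0% AcOH, adjusted p = 3.9e-05 and 9.6e-04). GRX6 and GRX7 were not tested for low signal.

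Among peroxide partners and clients, GPX2, a glutathione peroxidase homologue, was at least 2.30-fold higher at 0.6% than at 0% AcOH in NBRC 0224. Both arrays at 0% AcOH were below background there. Its fitted change, not this bound, had an adjusted p of 0.031. Left out in turn, replicate 2 at 0% AcOH and replicates 1 and 2 at 0.6% AcOH of NBRC 0224 took the adjusted p of GPX2 to 0.19, 0.059 and 0.10. SRX1, the sulfiredoxin that repairs over-oxidised peroxiredoxins, was below background on all 8 arrays and was not tested, and neither was GPX1. MXR1, a methionine sulfoxide reductase that depends on thioredoxin, was at least 3.32-fold lower in NFRI 3145 at 0% AcOH. Its fitted difference, not this bound, had an adjusted p of 0.0013. MXR1 was below background on all 4 NFRI 3145 arrays, so, like TSA2, it entered the test only through the strain in which it is high. Of the 10 tested genes of this list, 2 were called higher in NFRI 3145 at 0.6% AcOH, HYR1 and RNR4, and 1 lower, YBP1. The call of YBP1 is weak. Its difference was −1.20 to −0.34 over the alternative settings, many of which did not keep the call, while most kept those of HYR1 and RNR4. At 0% AcOH 0 were called higher and 2 lower, MXR1 and RNR3. Over all tested genes 17.4% were called higher and 28.7% lower at 0.6% AcOH, and 21.1% and 29.1% at 0% AcOH. The difference of the acid responses was called for 0 of the tested genes of all 4 lists, with 1, 1, 3 and 1 genes at an unadjusted p under 0.05 in the limma fit for the partners, glutathione, NADPH and Yap1 lists. Among all 3879 tested genes 671 reached that p, so these counts are near the background.

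**Figure D4:**
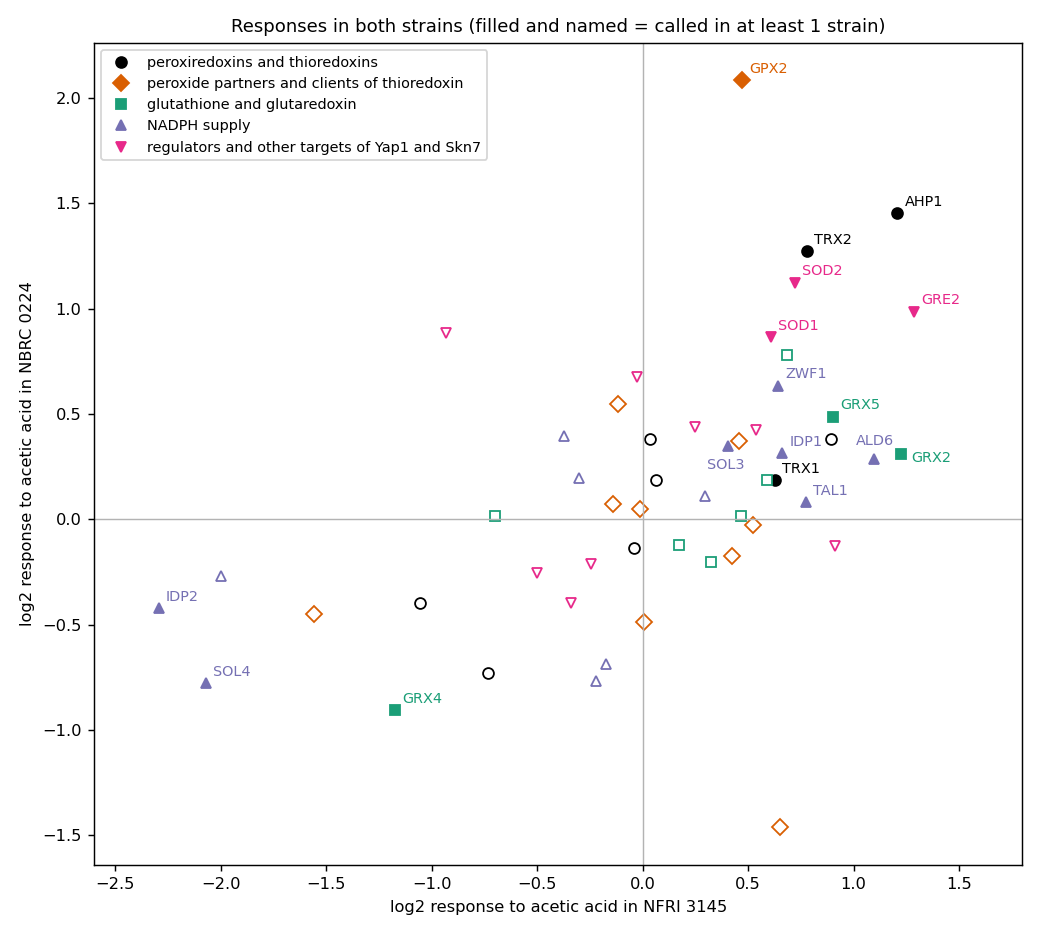
Log2 response to acetic acid in NFRI 3145 (horizontal) and in NBRC 0224 (vertical) for the tested peroxiredoxin and thioredoxin genes (black circles) and the 4 pathway lists. Filled and named points were called in at least 1 strain. AHP1, TRX2, SOD1, SOD2, GRE2 and ZWF1 lie up and to the right, and GRX4, SOL4 and IDP2 down and to the left. The points of SOL4 and IDP2 are fitted to signals below background on both NFRI 3145 acid arrays and on 1 NBRC 0224 acid array.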

How the data were processed

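RNA of 8 samples was hybridised to Affymetrix yeast arrays. The deposited values are linear intensities, 1 per probe set and array, made with GCOS per the submitters' processing notes. The trimmed mean, with 2% taken off each end, was 501 on all arrays, the mark of a scaling step before deposit. Of 10928 probe sets, 5498 were matched to S. cerevisiae genes through the R64 gene table. Where a gene had several, as 47 genes did, the one of highest mean log2 signal stood for it.

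The log2 intensities of all 8 arrays entered 1 limma model of 4 group means (version 3.58.1, R 4.3.3), with a mean-variance trend, 4 residual degrees of freedom (11.3 after moderation) and p-values adjusted by Benjamini-Hochberg over 3879 genes for each of 6 comparisons. The steps were tested on simulated data. For bounds, signals under an array's background were raised to it. The bounds were not tested, and the adjusted p of such a gene is that of its fitted difference. Figures were made in Python 3.11.15 with matplotlib 3.10.9. Genes outside the 10 members were named from called genes of the 4 lists, at most 3 a list and comparison by smallest p, and SRX1, YAP1 and SKN7 were named whatever their values. The members, lists and tests were chosen with earlier results of these data known. Promoter and protein sequences were not analysed here.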

Additional observations from a re-analysis of the deposited data

How the results depend on the processing

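Besides the deposited scaling, 12 kinds of alternative were run: quantile normalization, median centring, 2 other filters on dim genes, signals below background set to it, eBayes without a trend, robust eBayes, the mean over probe sets, log2(signal + 32), only the groups compared, the replicate block and each array left out. The number of members called in the response of NFRI 3145 was 3, and 1 with eBayes without a trend. At 0.6% AcOH the number called between strains was 5, and 8 under median centring, with 46.1% and 47.7% of all tested genes called. With 1 array left out, the numbers called were 1 to 3 in the response of NFRI 3145, 2 to 4 in that of NBRC 0224, 2 to 4 in their average, 0 for the difference of the responses, 4 to 6 between strains at 0.6% AcOH and 5 to 8 at 0% AcOH. A lone array left in a group was assumed to vary like the other groups. Not every alternative can move a member's log2 difference. The eBayes settings and the filters on dim genes leave it as it was, and each member has 1 probe set. An array left out of a group that is not compared leaves it unchanged too. With the replicate block the numbers were 3, 2, 3, 0, 5 and 6 in the same order, as without it. Deviations of equally numbered replicates correlated at r of −0.05 to 0.05 between groups, so the numbers were not taken to pair the arrays. Of all member values under alternatives, 19 lost a call, 26 gained one and 0 of those called reversed. The cause of these changes was not tested. Of the list counts under acid, that of NADPH supply in NFRI 3145 varied most, from 2 to 8 about a value of 7. No paired analysis beyond this was made, since the labels do not say that a number marks a shared culture or day. For TSA2, DOT5, TRX3 and PRX1, signal close to or below background limits what can be said.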

Other observations

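The genes next to TRX1, TRX2 and TSA2 on the chromosome were read for their own strain differences. This comparison was chosen after the members' values were seen. PDC1, the pyruvate decarboxylase gene next to TRX1, was at −0.07 at 0.6% AcOH and at 0.19 ± 0.12 at 0% AcOH (NFRI 3145 minus NBRC 0224, log2, adjusted p = 0.67 and 0.18), beside 3.23 and 2.79 for TRX1. SER2 and YGR210C, on either side of TRX2, were at 1.78 and 0.78 at 0.6% AcOH (adjusted p = 0.0075 and 0.024) and at 0.07 and 1.12 at 0% AcOH (adjusted p = 0.92 and 0.0030), beside 3.46 and 3.95 for TRX2. PPN1 and GUK1, on either side of TSA2, were at 0.25 and −0.08 at 0.6% AcOH and at −0.32 and 0.01 at 0% AcOH, none of them called. NFG1, the other neighbour of TRX1, was not tested for low signal. Neighbours of the other members were read too and their values are not given here. Some of them were called higher or lower between the strains and others were not.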
